A study of Rattus norvegicus with 6 samples.

Results

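The 10 genes described here encode transcription factors that mark or pattern cardiac mesenchyme, the non-muscle connective cells of the heart and the embryonic layers they come from. They are Tcf21, Tbx20, Tbx18, Tbx5, Gata4, Gata6, Hand2, Wt1, Mef2c and Foxc2. They were found in the files by symbol, and all 10 were among the 21857 symbols counted and among the 12941 genes with enough counts to be tested. The cells were neonatal rat cardiac fibroblasts (NRCFs), primary cells taken from the hearts of rats no more than 3 days old, of the Sprague-Dawley stock (the strain label itself reads "Noway"). RNA-seq was done on 6 libraries. The 3 Vector libraries, with genotype label WT, came from cells given the empty plasmid, and the 3 libraries labelled FTO overexpression came from cells given rat FTO cDNA in pcDNA 3.1, a plasmid for expression in mammalian cells. The study's methods give 1 µg/ml of plasmid and 48 h between transfection and harvest for both. FTO takes the methyl group off N6-methyladenosine (m6A), a modified base of RNA. The labels do not say whether the replicates were separate cultures, so p-values measure the spread between these libraries only.

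In the embryonic heart, cells of the epicardium, the outer layer, express Wt1, Tbx18 and Tcf21, and some leave that layer to become fibroblasts and mural cells of the vessels. Cardiac fibroblasts keep part of the cardiogenic programme, with GATA, T-box and HAND factors that are better known from heart muscle. GATA4, MEF2C and TBX5, with or without HAND2, are the factors used to turn fibroblasts into cells that resemble cardiomyocytes.

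Libraries held 13178952 to 17857999 counts. Fto itself was at 88.3 ± 1.2 CPM (counts scaled to library size with factors from the trimmed mean of M-values, TMM; mean ± SD, n = 3) in the Vector libraries and 92.3 ± 1.32 CPM in the libraries labelled FTO. Its log2 fold change was 0.06 (SE 0.0468, adjusted p = 0.239, quasi-likelihood test of edgeR, adjusted by Benjamini-Hochberg over all 12941 genes). The 95% interval of its fold was 0.976 to 1.12. All 3 libraries labelled FTO were above all Vector libraries, by a difference that did not pass the test, and the group is called by its label throughout. Across genes, log2 CPM of 2 libraries correlated at 0.992 to 0.994 where they shared a group and at 0.873 to 0.880 where they did not. The spread of counts between 2 libraries of a group was also taken as chi-square per degree of freedom. It was 1.58 to 2.16 for Vector pairs and 3.36 to 8.38 for pairs labelled FTO, highest for FTO replicates 2 and 3. Whether fewer cells of a type or less RNA per cell lies behind any lower value cannot be told apart in bulk RNA.

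Of the 10 factors, 3 were higher in the libraries labelled FTO, 4 were lower and 3 did not pass an adjusted p of 0.05. Tbx18, Wt1 and Hand2 were the higher ones. Foxc2, Tbx20, Mef2c and Tcf21 were the lower ones. Tbx5, Gata4 and Gata6 did not pass. The groups differed widely, and 65.9% of all genes tested passed the same threshold, with 33.2% higher and 32.8% lower. Thus 7 of 10 was near that background. The same shares are the background for the counts of each list below. The study's own threshold, taken here as 1 or more on the log2 scale in either direction with an unadjusted p under 0.05, gave fewer calls. There, 1 factor was higher (Tbx18) and 3 were lower (Foxc2, Tbx20 and Mef2c). That threshold was passed by 19.6% of all genes tested, 10.4% higher and 9.27% lower. The groups did not overlap in CPM for 6 of the 10 factors, against 70.3% of all genes tested. The median log2 fold change of the 10 was -0.07, beside 0.0011 for all genes tested. The median size of change, regardless of sign, was 0.54 for the 10 and 0.36 for all genes tested. It was 0.52 for the 91 other listed transcription factors and cofactors tested, so the 10 were like related factors in this.

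**Figure D1:**
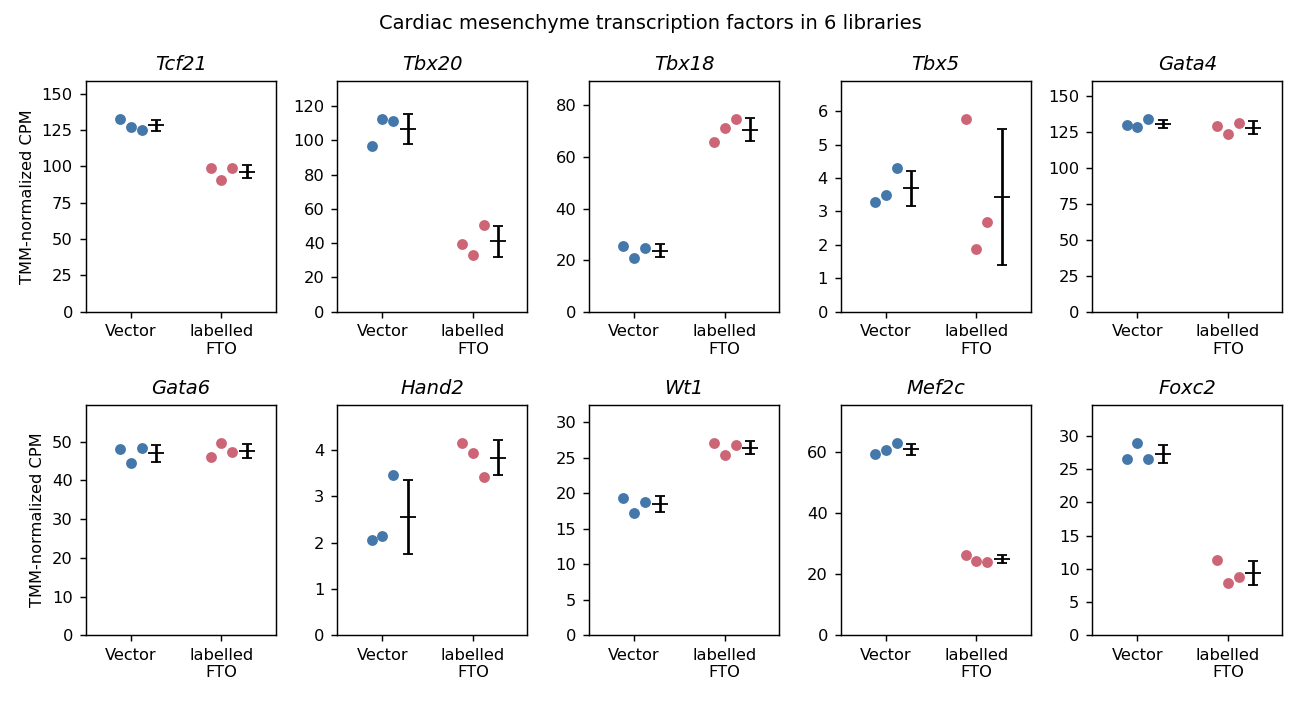
Each panel plots 1 of the 10 factors, with TMM-normalized CPM on the vertical axis (from 0) and the Vector libraries and the libraries labelled FTO on the horizontal axis. Points are libraries and bars are the mean ± SD of 3. Tbx18 and Wt1 were higher without overlap, Tcf21, Tbx20, Mef2c and Foxc2 were lower without overlap, and the groups of Tbx5, Gata4, Gata6 and Hand2 overlapped.

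To show what lies upstream of the factors that moved, the 250 bases before the transcription start are given for the epicardial and T-box factors that passed the test without overlap between groups and have an entry in the RefSeq promoter table. The table is on the GRCr8 build, while the processing notes of the submitters name rn6, so only the sequences and their positions come from GRCr8 and no count is placed on it. Each is written 5′ to 3′ on the strand of the gene. Capitals mark matches, on either strand, to the searched motifs. These were the GATA sites AGATAA and TGATAA, the T-box site AGGTGTGA, the E-box CANNTG, the MEF2 motif (CTA and TAG with 4 bases between them), the forkhead site TGTTTAC and the WT1 site GCGTGGGNG. Tcf21 lies at chr1:24520249-24520498 on the plus strand, Tbx20 at chr8:31534010-31534259 and Tbx18 at chr8:97559966-97560215 on the minus strand, and Wt1 at chr3:112021759-112022008 on the plus strand.
Tcf21: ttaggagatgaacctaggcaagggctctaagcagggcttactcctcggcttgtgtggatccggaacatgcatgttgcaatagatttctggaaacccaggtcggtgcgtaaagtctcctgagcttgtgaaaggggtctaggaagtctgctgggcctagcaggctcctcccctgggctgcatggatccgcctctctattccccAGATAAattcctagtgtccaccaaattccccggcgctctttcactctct
Tbx20: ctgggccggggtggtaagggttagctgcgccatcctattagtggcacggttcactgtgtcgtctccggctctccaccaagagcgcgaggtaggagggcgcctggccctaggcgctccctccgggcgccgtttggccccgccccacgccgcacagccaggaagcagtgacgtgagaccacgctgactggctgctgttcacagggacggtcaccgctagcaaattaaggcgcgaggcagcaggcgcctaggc
Tbx18: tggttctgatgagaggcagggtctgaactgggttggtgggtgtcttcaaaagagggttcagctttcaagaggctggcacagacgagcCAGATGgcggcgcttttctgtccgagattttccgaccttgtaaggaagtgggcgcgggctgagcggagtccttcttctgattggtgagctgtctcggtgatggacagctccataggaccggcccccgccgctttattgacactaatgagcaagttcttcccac
Wt1: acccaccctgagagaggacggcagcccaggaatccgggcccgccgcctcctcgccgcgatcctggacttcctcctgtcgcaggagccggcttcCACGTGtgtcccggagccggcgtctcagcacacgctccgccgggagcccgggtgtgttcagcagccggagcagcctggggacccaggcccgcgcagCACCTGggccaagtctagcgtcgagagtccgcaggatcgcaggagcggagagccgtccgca

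The 4 promoters differ in base composition and in matches. The Tbx20 and Wt1 sequences were rich in G and C, at 66.8% and 71.6%, with 22 and 27 CpG dinucleotides. Those of Tcf21 and Tbx18 were at 53.6% and 55.6%, with 7 and 12 CpG. The medians of all 33469 promoters in the table were 51.2% and 5 CpG. The Tcf21 promoter held an AGATAA 49 bases before the start, and a further match lay 27 bases after the start, outside the printed stretch. The Tbx18 promoter held 1 E-box, 163 bases before the start, and the Wt1 promoter held E-boxes 157 and 61 bases before it. No searched motif was found in the Tbx20 sequence.

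The table held 7 of the 10 factors, the other entries being Tbx5, Gata6 and Hand2. Over the stretch from 250 bases before to 50 after the start, AGATAA was in 2 of the 7 (Tcf21 and Hand2) and in 11.6% of all promoters. TGATAA was in 1 of the 7 (Tbx5) and in 9.03% of all. An E-box, a short and common motif, was in 4 of the 7 (Tbx18, Tbx5, Hand2 and Wt1) and in 72.1% of all. The T-box, MEF2, forkhead and WT1 letters were in none of the 7 and in 1.10%, 3.84%, 3.78% and 1.66% of all promoters. These matches describe the letters in this window only.

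Among the factors of the epicardial lineage, Tcf21 was lower and Tbx18 and Wt1 were higher in the libraries labelled FTO. Tcf21, a basic helix-loop-helix factor needed for the formation of cardiac fibroblasts and a marker of them in the adult heart, was at 132, 127 and 125 CPM in Vector replicates 1, 2 and 3 and at 99.3, 91.0 and 99.0 CPM in FTO replicates 1, 2 and 3. Every library labelled FTO was below every Vector library, and the libraries of each group lay close together. The change was -0.41 on the log2 scale (SE 0.0501, edgeR quasi-likelihood adjusted p = 3.5e-06), which put the FTO level 24.7% lower.

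Tbx18, a T-box factor of the epicardium, the sinus node and vascular mural cells, moved the other way. It was at 25.7, 20.9 and 24.6 CPM in the Vector libraries and at 65.9, 71.4 and 74.6 CPM in the libraries labelled FTO. The lowest FTO library was more than 2 times the highest Vector library. On the log2 scale the rise was 1.58 (SE 0.0786, edgeR adjusted p = 8.7e-11), a fold of 2.99 with a 95% interval of 2.66 to 3.35, the largest rise among the 10.

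Wt1 encodes a zinc-finger factor of the epicardium that is needed for epicardial cells to give rise to mesenchyme. It was at 19.4, 17.3 and 18.8 CPM in the Vector libraries and at 27.1, 25.5 and 26.8 CPM in the libraries labelled FTO. The groups were apart, with a gap wider than the range within either. Wt1 rose by 0.52 on the log2 scale (SE 0.0796, edgeR adjusted p = 3.9e-05), a fold of 1.43 with a 95% interval of 1.27 to 1.61.

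The epicardial markers bear on Tbx18 and Wt1. Of 8 on the list, 7 could be tested, 5 were higher, 1 was lower (Upk3b) and 1 did not pass. Their summed level ran from 79.8 to 80.9 CPM in the Vector libraries and from 264 to 330 CPM in the libraries labelled FTO. Most of that difference came from Aldh1a2, given with the WT1 targets, and Msln, the mesothelial surface protein mesothelin, which went from a mean of 2.83 to 87.1 CPM. The part of these markers in the values of Tbx18, Wt1 and Tcf21 was not tested. The mural list, which also bears on Tbx18, had 3 genes higher and 4 lower of the 7 tested. Its sum was 1587 to 1648 CPM in the Vector libraries and 1314 to 1400 CPM in the libraries labelled FTO. Pdgfrb was the largest part of that sum, at means of 888 and 633 CPM. The sum hides a split, with Kcnj8 (2.06 to 60.8 CPM), Abcc9 (20.9 to 114) and Des (86.4 to 472) higher. Myh11 (315 to 27.1 CPM), Notch3 (226 to 14.9) and Cspg4 (80.1 to 30.1) were lower, as was Pdgfrb. The part of the mural list was not tested either. The fibroblast list, beside Tcf21, had 7 genes higher and 4 lower of 11, from Dcn (decorin), which went from 47.0 to 5611 CPM, to Col1a1 (type I collagen), which went from 25809 to 8268 CPM. Its summed level was 41473 to 42058 CPM in the Vector libraries and 21809 to 22773 CPM in the libraries labelled FTO, and its part in the Tcf21 value was not tested.

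Genes known as WT1 targets were also counted. Of 10 such genes, 6 could be tested, and 4 were higher and 2 lower, where 65.9% of all genes tested passed. Aldh1a2, the retinoic acid synthesizing enzyme of the epicardium, was at 57.1 ± 0.448 CPM in the Vector libraries and 170 ± 26.3 CPM in the libraries labelled FTO (log2 fold change 1.57, edgeR adjusted p = 2.7e-10). Aldh1a2 is also on the epicardial list. Wnt4 (0.89, adjusted p = 0.00028) and Snai1 (0.49, adjusted p = 1.1e-05) were higher too. Spry1, an inhibitor of receptor tyrosine kinase signalling, fell by 1.85 on the log2 scale (adjusted p = 3.6e-13) and Ntrk2, a neurotrophin receptor, fell by 0.55 (adjusted p = 0.00218).

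The 3 T-box members did not move together. Tbx20, a T-box factor of the developing myocardium and endocardium that is also expressed in cardiac fibroblasts, was at 96.4, 112 and 111 CPM in the Vector libraries and at 39.4, 32.9 and 50.5 CPM in the libraries labelled FTO. The groups did not overlap, though FTO replicates 2 and 3 were well apart. Tbx20 changed by -1.37 on the log2 scale (SE 0.109, edgeR adjusted p = 2.7e-08), so the Vector level was 2.58 times the FTO level.

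Tbx5, the gene mutated in Holt-Oram syndrome and a driver of atrial and left ventricular identity, was near the lower end of what could be tested, with 25 to 82 counts a library. It was at 3.29, 3.49 and 4.29 CPM in the Vector libraries and at 5.75, 1.89 and 2.68 CPM in the libraries labelled FTO. FTO replicate 1 was above all Vector libraries, and the other FTO libraries were below all of them. The log2 fold change was -0.11 (SE 0.305, edgeR adjusted p = 0.767), with an interval of -0.76 to 0.54. Without FTO replicate 1 it was -0.67 (adjusted p = 0.0298), so that library decides the call. The biological coefficient of variation of Tbx5, the spread between replicates beyond counting noise, was 22.2%, against 3.92% to 10.9% for the other 9 factors.

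The ratio of counts of one gene to another within a library needs no scaling between libraries. Tbx18 counts were 0.266, 0.186 and 0.222 of Tbx20 counts in the Vector libraries and 1.67, 2.17 and 1.48 of them in the libraries labelled FTO. The order of the pair in counts was thus opposite in the groups, with no overlap, and the ratio rose by 2.98 on the log2 scale. The exact two-sided permutation p was 0.1, the smallest that 3 libraries against 3 allow. The ratio of Tbx20 to Tbx5 was 29.3, 32.1 and 25.8 in the Vector libraries and 6.85, 17.4 and 18.9 in the libraries labelled FTO (log2 difference -1.14, exact permutation p = 0.1). It was lower in all FTO libraries, and without FTO replicate 1, the library high in Tbx5, the log2 difference was -0.68. Counts are not per length, so these ratios show change between libraries and not which gene had more transcripts.

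**Figure D2:**
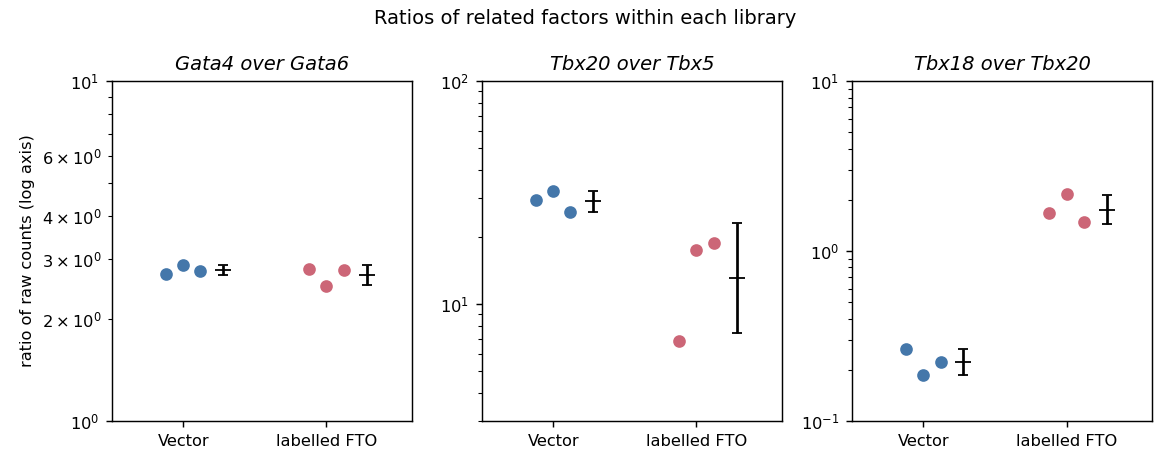
Each panel plots the ratio of raw counts of 2 related factors in every library on a log axis, with Vector libraries at the left and libraries labelled FTO at the right of each panel. Points are libraries and bars are the mean ± SD of 3, taken on the log2 scale. The ratio of Gata4 to Gata6 stayed between 2.49 and 2.88 in all 6, Tbx20 over Tbx5 was lower and Tbx18 over Tbx20 higher in each library labelled FTO.

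Of 14 other T-box factors counted, 6 could be tested, of which 1 was higher, 1 was lower and 4 did not pass. Tbx3, a transcriptional repressor expressed in the conduction system, rose from 3.90 ± 0.690 to 8.36 ± 1.22 CPM (log2 fold change 1.10, edgeR adjusted p = 3.6e-05). Tbx3 is the neighbour of Tbx5 on the RefSeq rat map, and Tbx5 did not pass the test. Mga, a large factor with a T-box, fell by 0.58 (adjusted p = 0.00018). Tbx2, the paralog of Tbx3, was at 5.48 and 5.79 CPM (log2 fold change 0.07, adjusted p = 0.722).

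Gata4 and Gata6 did not pass the test, with narrow intervals. These zinc-finger factors bind the same GATA sequence, act early in heart formation and partly replace each other. Gata4 was at 130, 128 and 134 CPM in the Vector libraries and at 130, 123 and 132 CPM in the libraries labelled FTO. The groups overlapped, and the log2 fold change was -0.03 (SE 0.0455, edgeR adjusted p = 0.602), with a 95% interval of the fold of 0.917 to 1.05. Only 4.54% of the genes tested had a smaller change.

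Gata6 was at 48.1, 44.6 and 48.4 CPM in the Vector libraries and at 46.2, 49.6 and 47.2 CPM in the libraries labelled FTO. The groups overlapped here too. The log2 fold change was 0.02 (SE 0.0614, edgeR adjusted p = 0.797), the interval of the fold was 0.925 to 1.11, and 3.08% of the genes tested had a smaller change. Gata4 counts were 2.70, 2.88 and 2.76 times Gata6 counts in the Vector libraries and 2.81, 2.49 and 2.78 times in the libraries labelled FTO (exact permutation p = 0.7). A noncoding RNA overlaps Gata4 in the RefSeq annotation and another overlaps Mef2c. Whether counting used the strand is not given, so reads from such a partner cannot be told apart from those of the gene.

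Of 6 other GATA factors and FOG cofactors tested, 3 were lower, none was higher in edgeR and 3 did not pass. Gata3, better known from lymphocytes and sympathetic neurons, fell from 22.4 ± 0.878 to 1.74 ± 0.560 CPM (log2 fold change -3.70, SE 0.155, edgeR adjusted p = 1e-11). Zfpm2 (FOG2), the partner of GATA4 in the epicardium and the forming heart, fell as well (log2 fold change -0.54, adjusted p = 6.8e-06). Zfpm1 (FOG1) fell from 43.7 to 26.4 CPM (-0.72, adjusted p = 1.7e-06). Both partners of the GATA factors were thus lower in the libraries where Gata4 and Gata6 themselves did not pass the test.

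Hand2, a basic helix-loop-helix factor of the second heart field and of neural crest derivatives, had few counts, 28 to 61 a library. It was at 2.05, 2.15 and 3.46 CPM in the Vector libraries and at 4.14, 3.93 and 3.41 CPM in the libraries labelled FTO. Vector replicate 3 lay above FTO replicate 3, so the groups overlapped. The log2 fold change was 0.57 (SE 0.222, edgeR adjusted p = 0.0343), a fold of 1.49 with an interval of 1.07 to 2.06. This call was the least stable of the 7. It was lost without Vector replicate 1 (0.44, adjusted p = 0.130), without Vector replicate 2 (0.45, adjusted p = 0.132), without FTO replicate 1 (adjusted p = 0.110), without FTO replicate 2 (adjusted p = 0.0561) and in DESeq2 (adjusted p = 0.0693). Hand1, its paralog, had a mean of 4.33 counts and was not tested.

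Of 9 other basic helix-loop-helix factors tested, 4 were higher, 4 were lower and 1 did not pass. Heyl, a repressor known as a Notch target, fell from 37.0 ± 2.80 to 1.76 ± 0.412 CPM (log2 fold change -4.37, SE 0.135, edgeR adjusted p = 2.3e-13) and Hey2 from 11.5 to 2.96 CPM (-1.98, adjusted p = 1.2e-08). Scx, the tendon factor scleraxis, fell by 1.88 (adjusted p = 2.8e-09). The mesenchymal factors Twist1 (20.3 to 33.1 CPM, adjusted p = 2.3e-06) and Twist2 (8.67 to 19.6 CPM, adjusted p = 8.4e-08) were higher, as was Msc (3.54 to 5.84 CPM, adjusted p = 0.00404), a factor close to Tcf21 in sequence that was higher where Tcf21 was lower.

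Mef2c, a MADS-box factor that drives muscle genes in the heart and in skeletal and smooth muscle, fell. It was at 59.5, 60.7 and 63.0 CPM in the Vector libraries and at 26.4, 24.5 and 24.0 CPM in the libraries labelled FTO. The libraries of each group were within a few CPM of each other and the groups were far apart. Mef2c changed by -1.29 on the log2 scale (SE 0.0643, edgeR adjusted p = 8.7e-11), so the Vector level was 2.44 times the FTO level. Mef2b had a mean of 1.83 counts and was not tested, and the other paralogs did not pass. Mef2a was at 103 and 102 CPM (log2 fold change -0.02, adjusted p = 0.814) and Mef2d at 42.7 and 47.2 CPM (0.14, adjusted p = 0.160).

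The list of MEF2 paralogs, cofactors of SRF and class IIa histone deacetylases, which bind MEF2 and repress its targets, had 9 tested genes. Of these, 7 were lower, none was higher in edgeR and 2 did not pass. That is 77.8% called, beside 65.9% of all genes tested. The median size of change was 0.31 in the list and 0.36 over all genes tested. Hdac7 fell from 73.5 to 51.2 CPM (-0.52, edgeR adjusted p = 1.5e-06), Hdac4 from 15.8 to 12.3 CPM (-0.36, adjusted p = 0.00592) and Myocd, the smooth and cardiac muscle cofactor myocardin, from 10.7 to 7.74 CPM (-0.46, adjusted p = 0.00428). Mef2c, Hdac7, Hdac4 and Myocd were lower in the same libraries, as were 32.8% of all genes tested.

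Foxc2, a forkhead factor of paraxial and vascular mesenchyme and of lymphatic vessels, fell. It was at 26.5, 28.9 and 26.6 CPM in the Vector libraries and at 11.4, 7.93 and 8.77 CPM in the libraries labelled FTO. The groups were far apart. Foxc2 changed by -1.55 on the log2 scale (SE 0.113, edgeR adjusted p = 9.2e-09), so the FTO level was 65.8% lower. Foxc1, the paralog with which Foxc2 shares much of its work in the embryo, was at 17.1 ± 0.929 and 19.8 ± 1.61 CPM and did not pass (0.20, adjusted p = 0.0637). The difference between the paralogs was not tested. On the RefSeq rat map Foxc2 lies between Mthfsd, which did not pass (0.02, adjusted p = 0.907), and Foxl1, which had a mean of 1.83 counts and was not tested.

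Of 8 other forkhead factors tested, 1 was higher, 3 were lower and 4 did not pass. Foxp2 fell from 17.9 to 5.58 CPM (-1.67, edgeR adjusted p = 2.3e-09), Foxp1, needed for outflow tract and myocardial growth, from 58.7 to 38.1 CPM (-0.63, adjusted p = 6.8e-07) and Foxo1 from 8.76 to 5.71 CPM (-0.61, adjusted p = 0.00061). Foxo3 was higher, at 35.7 and 43.8 CPM (0.30, adjusted p = 0.00790).

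**Figure D3:**
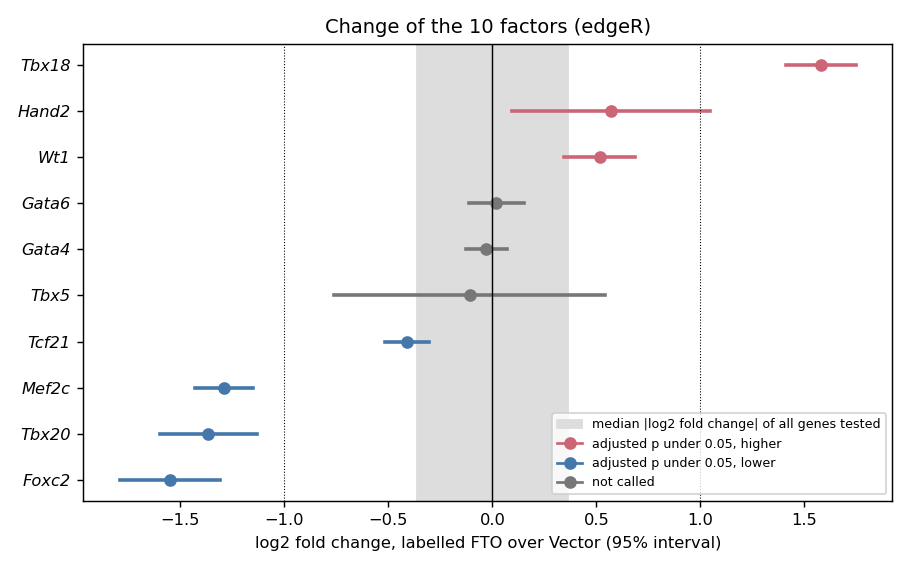
The plot gives the fitted log2 fold change, labelled FTO over Vector, of each of the 10 factors (points) with its 95% interval (lines), against 0 and against the study's fold threshold (dotted lines). The gray band spans the median size of change of all genes tested, 0.36 either way. Foxc2, Tbx20 and Mef2c lie past the lower dotted line and Tbx18 past the upper one, while Gata4 and Gata6 have narrow intervals at 0 and Tbx5 a wide one.

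The endothelial and cardiomyocyte markers bear on factors that these cells also express. Of 9 endothelial markers 6 could be tested, with 5 higher and 1 that did not pass. Their sum was 550 to 575 CPM in the Vector libraries and 628 to 691 CPM in the libraries labelled FTO. Nearly all of it was the single gene Eng, at means of 537 and 599 CPM (log2 fold change 0.16). Cdh5, the endothelial cadherin, went from a mean of 1.88 to 5.65 CPM, Cldn5 had 0 counts in all 6 libraries, which allows up to 0.227 CPM in the shallowest, and Vwf had a mean of 8.33 counts. The 9 cardiomyocyte markers in the table had 8 higher and 1 lower (Tnnt2). Their sum was 1259 to 1284 CPM in the Vector libraries and 1661 to 1721 CPM in the libraries labelled FTO. Tnnt2 was the largest part of that sum, at means of 770 CPM in the Vector libraries and 649 CPM in the libraries labelled FTO. Foxc2, Mef2c and Tbx20 were lower and Hand2 was higher in those libraries, and the part of these cells in their values was not tested. Macrophages express Mef2c too. Their markers were lower in 8 of 9 and higher in 1 (Adgre1), with a sum of 681 to 697 CPM in the Vector libraries and 203 to 228 CPM in the libraries labelled FTO, and their part in the Mef2c value was not tested. Schwann or neural markers were lower in 4 of 6, with 2 that did not pass, at a sum of 32.3 to 34.7 CPM in the Vector libraries and 14.5 to 15.3 CPM in the libraries labelled FTO. Epithelial markers were at most 1.02 CPM in sum in any library.

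Genes that GATA4, TBX5, MEF2C or HAND2 are known to drive in heart muscle were measured beside their regulators. All 14 passed the test, with 12 higher and 2 lower and a median log2 fold change of 1.32. Over all genes tested, 65.9% passed, with 33.2% higher and 32.8% lower. Nppb, the natriuretic peptide BNP, went from 20.2 ± 0.935 to 128 ± 15.1 CPM (2.66, edgeR adjusted p = 2.9e-13). Gja1, the gap junction protein connexin 43, went from 55.1 to 258 CPM (2.23, adjusted p = 8.4e-15) and Tnni3, cardiac troponin I, rose from 7.53 CPM (1.89, adjusted p = 6.5e-09). The lower ones were Tnnt2, cardiac troponin T, at 770 and 649 CPM (-0.25, adjusted p = 5.3e-05) and Slc8a1, the sodium-calcium exchanger, at 71.8 and 59.6 CPM (-0.26, adjusted p = 0.0168). Of the 4 regulators, Mef2c was lower, Hand2 was higher with overlap between groups, and Gata4 and Tbx5 did not pass. Of the 14, Myh6, Myh7, Tnni3, Tnnt2, Ryr2, Myl2 and Myl7 are also on the cardiomyocyte marker list, so the counts of the lists are not separate results.

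Among 21 other cardiogenic factors tested, 9 were higher, 5 were lower and 7 did not pass. Nkx2-5, the homeobox factor of the early heart, rose from 2.15 ± 0.296 to 7.82 ± 0.838 CPM (1.86, SE 0.173, edgeR adjusted p = 1.6e-07). Hopx (0.66, adjusted p = 0.00034) was higher as well. Smarcd3 (BAF60C), a chromatin remodelling subunit that works with GATA4 and TBX5 in heart formation, fell from 79.7 to 33.8 CPM (-1.24, adjusted p = 1.3e-10). The nuclear receptors Nr2f1 (-0.94, adjusted p = 0.00027) and Nr2f2 (-0.80, adjusted p = 5.9e-08) were lower.

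Among 32 other mesenchymal factors tested, 8 were higher, 14 were lower and 10 did not pass. Sox9, which drives cartilage and valve matrix, fell from 177 ± 4.14 to 16.9 ± 1.99 CPM (-3.38, SE 0.0693, edgeR adjusted p = 1.7e-15). Snai2 fell from 39.1 to 16.1 CPM (-1.28, adjusted p = 3e-10). Tshz2 rose from 8.73 ± 1.11 to 73.7 ± 7.94 CPM (3.08, SE 0.102, adjusted p = 5.6e-13), Osr1 from 29.1 to 60.8 CPM (1.06, adjusted p = 7.1e-10) and Prrx2 from 6.29 to 12.1 CPM (0.95, adjusted p = 5.1e-06). Over all 91 other listed factors and cofactors tested, 23 were higher, 37 were lower and 31 did not pass. That is 60 called, or 65.9%, a share like that over all genes. Their median log2 fold change was -0.08.

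**Figure D4:**
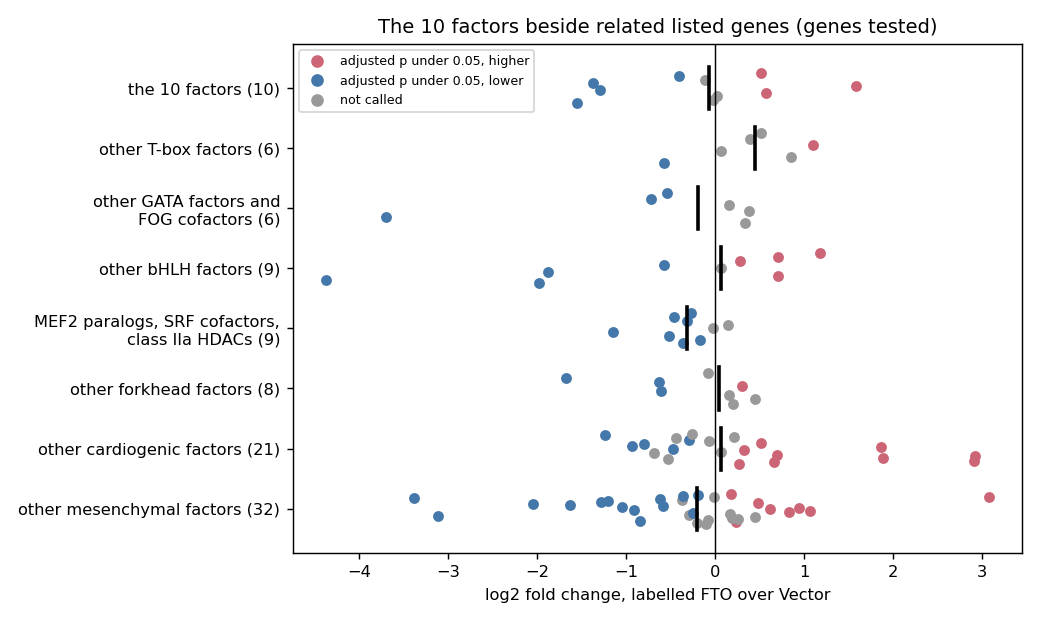
The plot sets the log2 fold change, labelled FTO over Vector, of the 10 factors (top) beside that of the tested genes of 7 lists of related factors, with 1 point for each gene and a black bar at each list's median. The number of genes tested stands after each name. The 10 factors lie between -1.55 and 1.58, and Heyl, at -4.37, and Tshz2, at 3.08, mark the ends of the other lists.

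Profiles over the 6 libraries were also compared. Each was centred on its Vector mean in log2 CPM, and likeness was the Euclidean distance to the other listed factors with a mean of at least 50 counts. Mef2c was nearest to Snai2 (distance 0.126) and Smarcd3 (0.275), both of which fell by a like amount. Foxc2 was nearest to Foxp2 (0.421) and Mef2c (0.571), and Tbx20 to Snai2 (0.501) and Mef2c (0.534), so Mef2c was among the nearest of both. The nearest to Tbx18 were Nkx2-5 (0.569) and Twist2 (0.737).

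Tcf21 was nearest to Hdac4 (0.166) and Meis3 (0.205), and Prrx1 was among the nearest to Wt1 (0.240). Gata6 was nearest to Gata4 (0.175) and Meis1 (0.210), while Gata4 was nearest to Pbx2 (0.115) and Tshz1 (0.143). Of the members with few counts, Hand2 was nearest to Hopx (0.427) and Twist1 (0.492), and Tbx5 to Sox5 (1.03) and Ebf1 (1.06). Tbx5 was farther from its nearest than any other of the factors, and Hand2 was not set apart in this way. Distances of steady genes are small because all steady genes lie near 0. For genes that moved, centring on the Vector mean makes a near neighbour one with a like fold change. Nearness thus adds little to the fold changes themselves, and these are descriptions over 6 libraries.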

How the data were processed

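Libraries were made from total RNA of 6 NRCF samples. The files deposited by the authors hold raw counts per gene symbol as whole numbers, with a separate file for each library. The submitters' processing notes name Trimmomatic and the rn6 build. The aligner, counting program, annotation and strand setting are not given in the sources used here. The genotype labels gave the groups, and the titles gave the replicate numbers.

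Genes were kept with filterByExpr of edgeR 4.0.16 (minimum count 10) in R 4.3.3, which left 12941 of 21857 symbols. Counts were scaled with TMM factors (trimmed mean of M-values) and tested by the two-sided quasi-likelihood test (glmQLFTest) with no covariate and Benjamini-Hochberg adjustment over all genes tested. The standard error (SE) and 95% interval were derived from the fold change and the test's F statistic. CPM is not per length, so levels were not compared between genes. The study's threshold does not state whether its p-value was adjusted, and the unadjusted one was used. Totals of 13178952 to 17857999 make 3 counts worth 0.168 to 0.227 CPM. Intervals cover counting error and the spread between replicates only. Alternatives were DESeq2 1.42.0, limma-voom (limma 3.58.1), DESeq2 size factors, library size alone, other filters, the replicate number as a block, glmTreat at 1.2-fold and leaving out each library. The procedure was also run on simulated counts of 12554 genes, 200 of them changed 2-fold. It called 196 of the 200 and 10 others. Far fewer genes were changed there than passed in these data, so that run does not test the procedure at so wide a difference.

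The members, gene lists and tests were chosen with earlier results of these data known. Genes named are Fto, the members, the 3 largest called changes in each direction of each list at a mean of at least 50 counts, and the 2 factors nearest to each member. Some genes that meet this rule are not reported here. Other genes (the paralogs and neighbours that did not pass, untested or undetected genes, and the markers) were named after their values were seen. Neighbouring genes and promoter sequences are from NCBI RefSeq (GRCr8), and the promoter table matched 7 of the 10 members.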

Additional observations from a re-analysis of the deposited data

How the results depend on the processing

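Tcf21, Tbx20, Tbx18, Wt1, Mef2c and Foxc2 kept their direction and call under all 14 alternatives run. Of the 10 members, 6 or 7 passed the adjusted threshold in every alternative and 4 passed the study's. Hand2 kept its direction in all 14 but lost its call in 6, among them glmTreat (adjusted p = 0.0929). The 3 members without a call changed sign when some libraries were left out. Tbx5 ran from -0.67 to 0.15, being 0.010 without Vector replicate 3, 0.15 without FTO replicate 2 and 0.06 without FTO replicate 3. Gata4 ran from -0.051 to 1.9e-04, the latter without FTO replicate 2. Gata6 ran from -0.022 without Vector replicate 2 to 0.037, and was -0.0063 without FTO replicate 2. Over all genes, 8531 passed the adjusted threshold and 5668 passed glmTreat, which tests against a larger change. Same-numbered libraries deviated from their group means with correlations of 0.003, -0.069 and 0.021. Differently numbered libraries ranged from -0.094 to 0.087, so no shared effect of the number was seen. With so few libraries, these values cannot tell whether same-numbered ones shared a culture or batch. With the replicate block, 7 members passed, and the adjusted p of Hand2 was 0.0463. Hand2 and Tbx5 had the fewest counts of the 10 members, at 25 to 82 a library. The part of depth in their results was not tested.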
